A study of Homo sapiens with 6 samples.

Results

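Dense TTD domains are stretches of chromatin in which peaks of the UHRF1 tandem Tudor domain (TTD) follow each other at short distances. They were chosen by the positions and widths of the TTD peaks: neighbouring peaks were joined where the gap between them was under 12500 bp, and a joined run was kept if it had at least 5 peaks and each of its peaks was under 10000 bp wide. This gave 507 domains with 3294 of the 31569 peaks in the list. Chromatin binding was measured in untreated HepG2 cells, a human liver cancer line from a hepatoblastoma, by CIDOP, which works like ChIP but pulls chromatin down with a purified reading domain. That domain was GST-tagged UHRF1-TTD, residues 126 to 280. There were 3 groups with 2 replicates each, TTD CIDOP, H3K9me2 ChIP and input, and the values given here come from the TTD list alone. Both TTD replicates were pooled before peaks were called and the list holds positions and widths only, so it gives no signal depth and no error between replicates.

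UHRF1 helps the enzyme DNMT1 to copy methyl groups onto newly made DNA. Its TTD reads dimethylated and trimethylated lysine 9 of histone H3, marks of silent chromatin, and monomethylated lysine 4 is the usual mark of enhancers, the distal elements that raise transcription of their genes. In liver cells, enhancers often lie in clusters near genes of liver function and are bound by factors of the FOX, HNF4, HNF1 and CEBP families.

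The sequences that follow were chosen because they show the letters of an HNF4 motif. These letters are a feature that set the middle of the domain peaks apart from the longer gaps between them. Motif letters were searched on both strands as CAAAGTCCA or CAAAGGTCA for HNF4 (TGGACTTTG and TGACCTTTG on the other strand) and as TGTTTAC or TATTTAC for FOX (GTAAACA and GTAAATA on the other strand). Among the 116 peaks of the 18 domains that hold the transcription start site (TSS) of a gene from the hepatic lists, the central 300 bp had HNF4 letters in 7, each in a different domain, and 3 of these windows are shown. FOX letters were in 8 of the 116, of which 2 also had HNF4 letters, and both of these are among the windows shown. They are given as the plus strand of hg38, with HNF4 and FOX letters in capitals. No capitals of different motifs overlap. The window of ABCC2 (chr10:99770406-99770705) lies between protein-coding genes, 12.1 kb upstream of the TSS. The window of C8B (chr1:56952496-56952795) lies in an intron of C8B itself, 21.7 kb downstream of its TSS in GENCODE. The window of the apolipoprotein cluster (chr11:116808276-116808575) lies between APOA5 and APOA4, 14.9 kb past the TSS of APOA4.
ABCC2 domain: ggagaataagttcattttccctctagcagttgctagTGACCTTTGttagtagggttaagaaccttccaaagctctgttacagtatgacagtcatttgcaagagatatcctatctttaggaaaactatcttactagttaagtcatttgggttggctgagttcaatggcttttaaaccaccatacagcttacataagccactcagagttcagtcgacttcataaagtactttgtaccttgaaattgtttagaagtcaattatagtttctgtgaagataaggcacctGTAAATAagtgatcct
C8B domain: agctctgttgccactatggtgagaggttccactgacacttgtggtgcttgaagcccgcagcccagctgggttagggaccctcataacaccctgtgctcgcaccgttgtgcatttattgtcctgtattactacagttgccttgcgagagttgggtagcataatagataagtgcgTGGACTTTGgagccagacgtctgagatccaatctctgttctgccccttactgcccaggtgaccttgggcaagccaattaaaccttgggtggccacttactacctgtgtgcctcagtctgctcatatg
APOA domain: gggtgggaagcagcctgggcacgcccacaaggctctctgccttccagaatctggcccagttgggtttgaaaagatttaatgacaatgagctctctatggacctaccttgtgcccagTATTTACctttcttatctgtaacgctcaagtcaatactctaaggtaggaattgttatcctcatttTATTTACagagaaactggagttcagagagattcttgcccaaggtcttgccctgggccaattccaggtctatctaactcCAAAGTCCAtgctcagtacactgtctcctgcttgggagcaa
HNF4 letters were present in 0.668% of 97901 windows of the same length taken every 30 kb across the genome, and FOX letters in 10.7% of them. A match describes the letters and shows no binding of a factor, and repeats are not marked in the sequence that was read.

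Promoters were taken from RefSeq (GRCh38.p14), 250 bases before to 50 bases after the start, and 14 of the 21 hepatic list genes with a TSS in a domain matched. HNF4 letters were found in 1 of these and FOX letters in 1, that of C8B. The promoter with HNF4 letters, shown here because it lies between peaks, is that of SERPINA3 (chr14:94612141-94612440, plus strand), the gene of a plasma protease inhibitor. It is given in the direction of transcription with these letters in capitals.
SERPINA3 promoter: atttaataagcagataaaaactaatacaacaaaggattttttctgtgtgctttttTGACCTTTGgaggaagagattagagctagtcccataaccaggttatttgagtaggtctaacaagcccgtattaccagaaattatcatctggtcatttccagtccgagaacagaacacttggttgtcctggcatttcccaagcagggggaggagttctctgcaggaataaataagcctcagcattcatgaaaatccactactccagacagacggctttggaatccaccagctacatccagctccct
Of 35116 promoters in the RefSeq table, 0.792% had the HNF4 letters and 5.97% the FOX letters. RefSeq and the GENCODE annotation used for the counts place some starts differently. The RefSeq promoter of ESR1 lies outside its domain, so ESR1 is counted here by an upstream start, and that of ANG lies in a peak while its GENCODE start lies in a gap. That of C8B lies nearer to the window shown than its GENCODE start.

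The 507 domains spanned 23.6 Mb, or 0.764% of the main chromosomes, and held 10.4% of the TTD peaks and 11.8% of the bases in peaks. Most were small: 209 had 5 peaks and 118 had 6, together 64.5% of the domains, while 37 had 10 or more and the highest number was 21. Domain span ranged from 14040 to 174270 bp with a median of 43.3 kb and quartiles of 34.4 and 53.6 kb. The cover, which is the percentage of the span that lies in peaks, had a median of 46.6%, quartiles of 38.7% and 55.6%, and a range from 15.0% to 86.6%. In 194 domains the peaks covered at least 50% of the span, and in 12 they covered under 25%. As a whole, the domains were covered to 46.8% and the main chromosomes to 3.02%, a contrast that follows from how the domains were chosen.

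**Figure D1:**
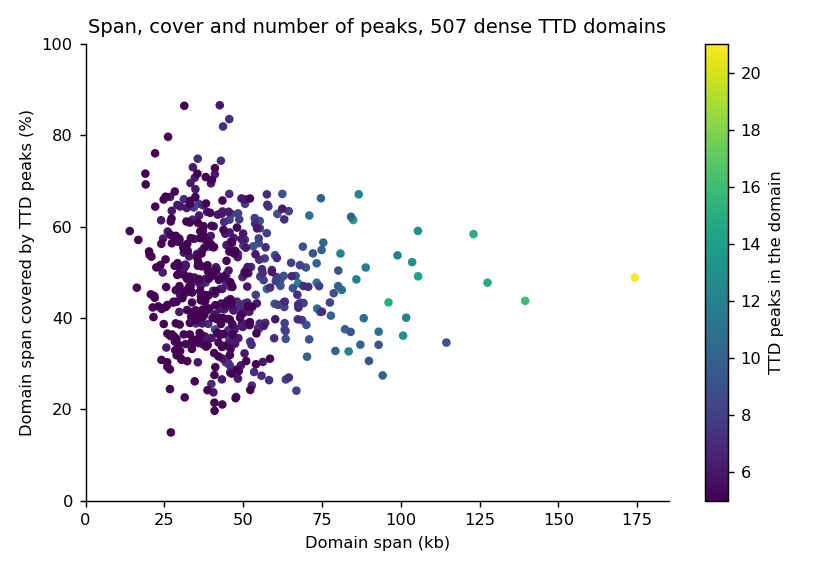
Span in kb against the percentage of the span covered by TTD peaks, with 1 point for each of the 507 dense domains and the colour giving its number of peaks. The middle 50% of the points lie between 34.4 and 53.6 kb, and the domain with 21 peaks stands alone at 174 kb.

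The peaks of the domains had a median width of 2850 bp (quartiles 1740 and 4498 bp), against 2130 bp (1310 and 3390 bp) for the 27549 other peaks under 10000 bp. Within a domain, the 2 outermost peaks were slightly narrower, with a median of 2630 bp for 1014 outermost peaks and 2940 bp for 2280 inner ones. The widest peak of a domain was an inner peak in 363 of 507 domains (71.6%), close to the 69.2% of peaks that were inner. It made up 29.7% of the peak bases of its domain in the median. This value depends on the rule, since each domain has at least 5 peaks, each under 10000 bp. The 2787 gaps inside domains had a median of 3620 bp (quartiles 1330 and 7045 bp). Gaps of 1000 bp or less made up 18.4% of them, and 17.7% of the 11930 gaps under 12500 bp in the whole list. The shortest gap was 610 bp, in the domains and in the whole list, so shorter interruptions of the signal cannot be seen in these peaks.

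Runs just past the limit on peaks resembled the smallest domains in cover, and runs set aside for a broad peak were longer and more fully covered. The second contrast follows in part from the rule, since each run set aside holds a peak of 10000 bp or more. Just under the limit on peaks, 446 runs had exactly 4 peaks, all under 10000 bp, with a median span of 26.2 kb and a median cover of 46.1%. Just over it, the 209 domains of 5 peaks had a median span of 35.3 kb and a median cover of 44.4%. The limit on width set aside 251 runs of 5 or more peaks that spanned 20.3 Mb, with a median span of 68.0 kb and a median cover of 63.6%. In 39 of them the widest peak was under 11000 bp (the narrowest such peak was 10030 bp), and in 50 of the domains it was 9000 bp or more. For the limit on gaps, 93 domains held an inner gap within 1000 bp of the limit and 62 had an outside peak less than 1000 bp beyond it, the nearest at 12520 bp.

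The domain with the most peaks was also the longest. It lay at chr12:75863171-76037440, with 21 peaks over 174 kb and a cover of 48.9%, and overlapped PHLDA1, which encodes a pleckstrin homology-like protein, and NAP1L1, which encodes a histone chaperone. Its nearest other genes were KRR1 at 352 kb and BBS10 at 307 kb. The TSS of PHLDA1 was in a gap of the domain, 1835 bp from the nearest peak. The next longest, with 16 peaks over 139 kb and 43.8% cover, lay at chr6:167724941-167864430 around the TSS of AFDN, the gene of the cell junction protein afadin, with TTLL2 and KIF25 on its sides. Of the 3 domains with 15 peaks, the first was inside PRKCA (protein kinase C alpha; 128 kb, 47.7% cover), with APOH at 111 kb and CACNG5 at 340 kb. Another held the TSS of ATF7IP2 (123 kb, 58.4% cover) between GRIN2A and EMP2. The other, between SOX9 and SSTR2, overlapped a part of SLC39A11, a zinc transporter gene, without its TSS (96.1 kb, 43.4% cover). All of these domains reached into a gene body, and in each TSS named here the start lay in a gap.

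The other domains among the 10 with most peaks varied more in their surroundings. With 14 peaks each, a domain of 106 kb held the TSS of SPOPL between HNMT and NXPH2, and one of 84.9 kb on chromosome 1 lay between genes, 88.8 kb from IRF2BP2 and 325 kb from TOMM20. The latter had a cover of 61.5% and a median gap of 1240 bp. With 13 peaks each, a domain inside MAP4K4, a kinase gene between RFX8 and IL1R2, had a cover of 59.1%. A domain on chromosome 3 lay 27.1 kb from LPP, with the gene ENSG00000285938 on its other side, and had 52.3%. The remaining domain with 13 peaks held the TSSs of FAM72A and SRGAP2 between AVPR1B and IKBKE and had 36.1%. Both of these genes have near-identical copies elsewhere in the genome, so the placement of reads there is uncertain.

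The 3 domains with the largest cover had 5 to 7 peaks. The highest cover, 86.6%, was found inside COBLL1 on chromosome 2, between GRB14 and SLC38A11, where 6 peaks spanned 42.6 kb and 3 of them were over 9000 bp wide. A domain of 5 peaks over 31.3 kb on chromosome 21 had 86.5%, and its nearest genes were NRIP1, a corepressor of nuclear receptors, at 128 kb and USP25 at 505 kb. The third, with 7 peaks over 45.6 kb on chromosome 8, had 83.6% and lay 358 kb from KHDRBS3 and 2070 kb from FAM135B. The lowest cover, 15.0%, was that of a domain of 5 peaks at the TSS of CMIP, a gene named here after its value was seen.

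The position of each domain was described by the protein-coding genes it overlaps. Of the 507 domains, 167 (32.9%) held at least 1 protein-coding TSS and 48 held 2 or more, with 7 as the highest number. Another group of 145 (28.6%) lay within a gene body, of which 8 also held the TSS of another gene. A part of a gene without its TSS was overlapped by 42 (8.28%), and 161 (31.8%) overlapped no protein-coding gene. These intergenic domains were a median of 31.6 kb from the nearest gene. A gene lay within 100 kb of 123 of them, and 5 had none within 500 kb. The start of 246 of 18866 lncRNA genes (1.30%) and of 14 of 1879 miRNA genes (0.745%) lay in a domain.

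By midpoint, 46.1% of the 3294 domain peaks lay in an intron (95% Wilson interval 44.4% to 47.8%), 2.31% in an exon (1.85% to 2.88%) and 51.6% outside protein-coding genes (49.9% to 53.3%). Outside genes lay 48.7% of the single peaks (47.9% to 49.5%), 47.1% of the peaks in runs of 2 to 4 (46.2% to 48.0%) and 57.5% of those in the 251 runs set aside for a broad peak (55.4% to 59.6%). These intervals cover counting error only, and peaks of the same domain are not independent. Only 57 of the peaks (1.73%, 1.34% to 2.24%) held a TSS, as did 1.80% of the 13893 single peaks. Distances from 10 to 100 kb from a TSS were the most common, with 57.7% of the domain peaks (56.0% to 59.3%), against 49.5% (48.7% to 50.4%) of the single peaks and 52.8% (51.9% to 53.7%) of the peaks in runs of 2 to 4. Distances over 100 kb were found for 24.7% of the domain peaks (23.2% to 26.2%), 38.5% of the peaks in runs with a broad peak (36.5% to 40.5%), 25.3% of those in runs of 2 to 4 (24.5% to 26.1%) and 31.5% of the single peaks (30.7% to 32.2%). The share of domain peaks at these long distances was thus close to that in runs of 2 to 4.

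In all, 237 of 20033 protein-coding genes had a TSS in a dense domain (1.18%), and 455 had a body that overlapped a domain (2.27%). A further 850 genes (4.24%) were the nearest gene on a side of a domain without overlapping one. Of the 293 genes in 6 lists of hepatic function, 21 had a TSS in a domain, or 7.17% (4.74% to 10.7%), and 30 overlapped by their body, or 10.2%. Another 24 (8.19%) were nearest neighbours, among them APOB, SERPINA1, LPA and CYP2C8. The 21 genes lay in 18 domains, because APOA1, APOA4, APOA5 and APOC3 share 1 domain, so they are not independent. Median gene length was 26.6 kb in these lists and was not compared with that of all protein-coding genes. Length bears on overlaps by gene body more than on those by TSS, but its part in either share was not tested. No test was made of these shares. Whether a gene is transcribed in these cells cannot be read from the list.

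A high share of hepatic genes was not limited to dense domains. In the runs set aside for a broad peak, 16 of the 293 genes had a TSS (5.46%), against 107 of all protein-coding genes (0.534%). Runs of 2 to 4 peaks held the TSS of 52 hepatic genes (17.7%), against 955 of all (4.77%). Single peaks held 11 (3.75%), against 259 of all (1.29%). Several genes that are central to liver function were therefore found outside the dense domains. FOXA1, the gene of a pioneer factor, lay in a run of 24 peaks over 187 kb with a widest peak of 19020 bp, and the nearest dense domain was 172 kb from its TSS. FGA, the gene of the fibrinogen alpha chain, lay in a run of 7 peaks with a widest peak of 12580 bp. The TSS of ALB, the albumin gene, lay in a run of only 2 peaks, the wider of 22530 bp. The TSS of FOXA2 was in a single peak of 1110 bp. The TSSs of HNF4A and ARID5B, taken as the upstream end of the gene record, were in no run. The nearest peaks, single ones, lay 2459 and 6704 bp away. Other starts within these gene records were not placed, so the distances describe this end only.

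Plasma protein genes with a TSS in a domain numbered 7 of 73 (9.59%, 4.72% to 18.5%). HP, which encodes the haemoglobin-binding protein haptoglobin, was in the most thoroughly covered stretch of these, a domain of 9 peaks over 62.5 kb at chr16:72022901-72085350 with 67.2% cover. Its TSS was in a peak of 8770 bp, and peaks covered 88.9% of its gene body. The TSS of its neighbour HPR was in a gap of the same domain. The domain of CP, the gene of the copper oxidase ceruloplasmin, had 8 peaks over 48.8 kb and 61.6% cover, and the TSS was 149 bp from the edge of a peak of 5610 bp. TTR encodes a carrier of thyroid hormone and retinol-binding protein. Its TSS in GENCODE lay 6.28 kb from the start of a domain of 7 peaks with 50.5% cover. This TSS was in a gap, and 56.4% of the gene record, chr18:31557009-31598833, was in peaks. TTR had no matched RefSeq promoter, so its GENCODE start could not be compared with RefSeq. The domain of SERPINA3 had 6 peaks and 57.3% cover, that of PLG 5 peaks and 57.5%, that of ANG 5 peaks and 46.8%, and that of C8B 5 peaks and 43.1%. Of these 7 TSSs, those of HP and PLG were in a peak.

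Genes of lipid and bile acid metabolism numbered 7 of 62 (11.3%, 5.58% to 21.5%). The apolipoprotein genes APOA5, APOA4, APOC3 and APOA1, which encode proteins of plasma lipoproteins, lay side by side in a domain of 7 peaks over 49.2 kb at chr11:116791881-116841120 with 42.4% cover. From its start, the peaks were 5940, 6630, 1960, 1880, 1280, 840 and 2370 bp wide. The TSSs of APOA5 and APOA4 were in the peaks of 5940 and 1880 bp, while those of APOC3 and APOA1 were in gaps, 1295 and 1129 bp from the nearest peak. No base of the APOA1 gene body was in a peak. CYP8B1, the sterol hydroxylase that sets the balance of bile acids, had its TSS in the last peak of a domain of 7 peaks over 67.3 kb with 39.7% cover. CYP27A1, another hydroxylase of bile acid synthesis, had its TSS in a gap of a domain of 7 peaks over 75010 bp, 3032 bp from a peak of 7260 bp. The TSS of DGAT2, which encodes an enzyme of triglyceride synthesis, was in a peak of 2630 bp, in a domain of 5 peaks with 52.4% cover.

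**Figure D2:**
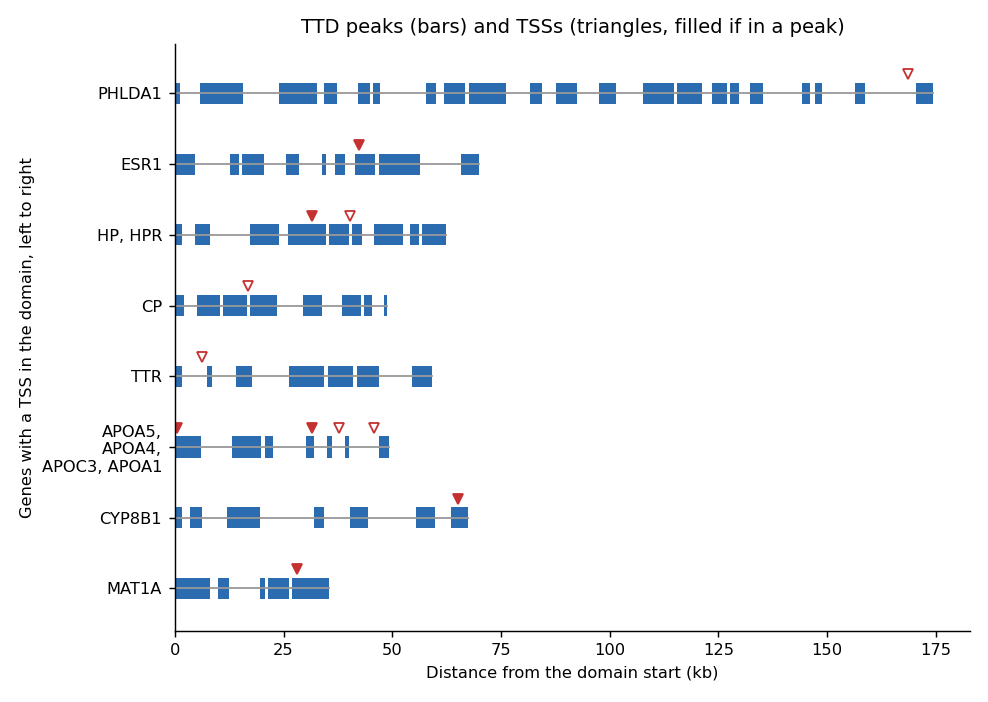
TTD peaks (bars) and TSSs (triangles, filled where the TSS is in a peak) of 8 dense domains, by distance from the domain start in kb. By their GENCODE starts, the TSSs of ESR1, HP, APOA5, APOA4, CYP8B1 and MAT1A are in peaks. Those of PHLDA1, HPR, CP, TTR, APOC3 and APOA1 are in gaps.

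Genes of drug metabolism and transport numbered 4 of 65 (6.15%, 2.42% to 14.8%). The cytochrome genes CYP3A5 and CYP3A4 were in separate domains of chromosome 7. That of CYP3A5 had 5 peaks over 32.3 kb with 56.2% cover and the TSS in a peak of 4270 bp. That of CYP3A4 had 6 peaks over 45.1 kb with 39.8% cover and the TSS in a gap, 1388 bp from a peak. ABCC2, which encodes an exporter of bilirubin conjugates into bile, had its TSS 400 bp from a peak in a domain of 5 peaks, and SLC22A7, an organic anion transporter gene, had its TSS in a peak of 4400 bp in a domain of 8 peaks. Both genes of glucose and amino acid metabolism with a TSS in a domain, of 47 (4.26%, 1.17% to 14.2%), were enzyme genes. MAT1A, the S-adenosylmethionine synthase gene of liver, had its TSS in a peak of 8570 bp of a domain with 71.6% cover. PCK2, the gene of the mitochondrial phosphoenolpyruvate carboxykinase, had its TSS 63 bp from a peak of a domain with 28.2% cover that held 7 TSSs. ESR1, the oestrogen receptor gene, was the 1 of 25 liver nuclear receptor genes with a TSS in a domain (95% interval 0.710% to 19.5%). Its domain at chr6:151614251-151684170 had 9 peaks with 51.1% cover, and the TSS was in a peak of 4680 bp.

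None of 21 hepatocyte transcription factor genes had a TSS in a domain, which allows a share of up to 14.3% (here and for other counts of 0, the limit is 3 genes out of the list, a simpler bound than the Wilson intervals used elsewhere), although the body of HNF4A overlapped a domain. This domain was 58.9 kb from the TSS of HNF4A used here, the upstream end of its gene record. Its distance from other starts of HNF4A was not measured. Among the lists for other cells, MYH7, a myosin gene of heart and slow muscle, was the 1 of 24 skeletal muscle markers with a TSS in a domain (4.17%, 0.739% to 20.2%). It lay in a peak of 6510 bp of a domain with 38.7% cover. None of 26 neuron markers or 26 blood cell markers had one, which allows up to 11.5% for each list, nor did 20 stellate and endothelial markers, which allows up to 15.0%. With each gene counted once, these 4 lists together held 95 genes. Of these, 1 had a TSS in a domain (1.05%, 0.186% to 5.72%), near the 1.18% of all protein-coding genes. Of 17 Wnt/beta-catenin target genes 0 were found (up to 17.6%), of 87 cytosolic ribosomal protein genes 0 (up to 3.45%), and of 415 olfactory receptor genes 0 (up to 0.723%).

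**Figure D3:**
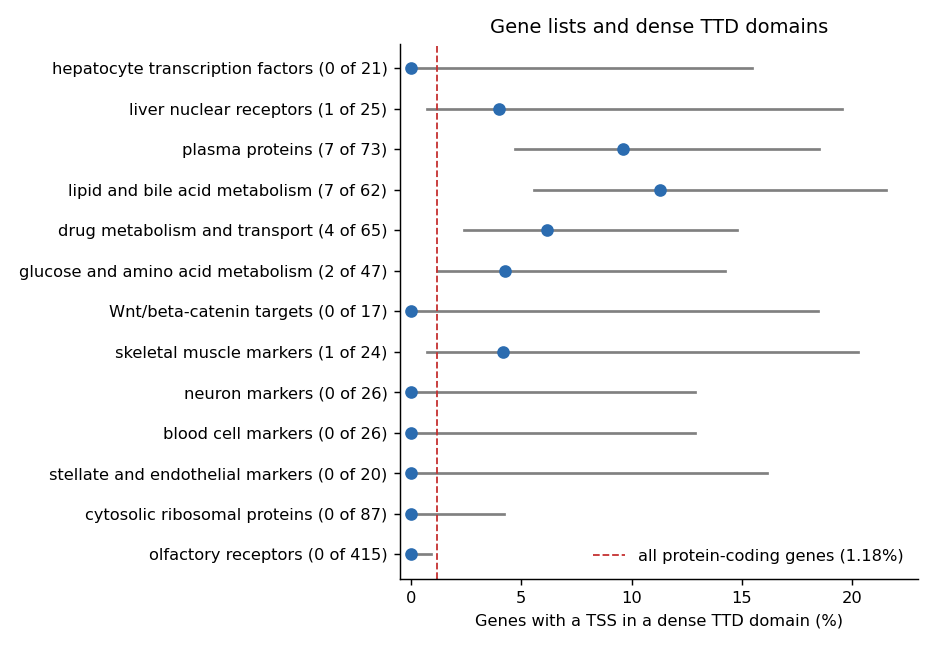
Percentage of each gene list with a TSS in a dense TTD domain (points) with 95% Wilson intervals (lines). The dashed line marks all protein-coding genes at 1.18%, and the lists of plasma proteins (9.59%) and of lipid and bile acid metabolism (11.3%) have the highest shares.

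Inside the domains, TSSs were placed in gaps more often than in peaks. Of 237 TSSs, 60 were in a peak (25.3%, 20.2% to 31.2%), whereas their domains were covered to 45.8% in the mean. Mean cover was 22.8% in the first 500 bp after the TSS and 49.9% between 2000 and 2500 bp before it. This lower cover at the TSS was seen for CpG-rich promoters, as measured by the ratio of observed to expected CpG in the 1 kb around the TSS. For 142 TSSs with a ratio of at least 0.4, a value set during the analysis, 8 were in a peak (5.63%, 2.88% to 10.7%), and mean cover in the first 500 bp was 4.41%. For 95 TSSs with a lower ratio, 52 were in a peak (54.7%, 44.7% to 64.4%), and mean cover there was 50.3%. CpG-poor TSSs were thus covered about as much as the rest of their domains. Outside the dense domains, 5.78% of 5692 CpG-poor TSSs and 1.42% of 14104 CpG-rich ones were in a peak.

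Of the 21 hepatic TSSs in domains, 17 were CpG-poor, and 10 were in a peak (47.6%, 28.3% to 67.6%), against 50 of the 216 others (23.1%). Among CpG-poor TSSs the shares were 10 of 17 (58.8%, 36.0% to 78.4%) and 42 of 78 (53.8%, 42.9% to 64.5%), and these intervals overlap widely. CpG-poor TSSs were also found in dense domains more often, 95 of 5787 (1.64%, 1.34% to 2.00%) against 142 of 14246 CpG-rich ones (0.997%, 0.846% to 1.17%). For hepatic genes these shares were 17 of 186 (9.14%, 5.78% to 14.1%) and 4 of 107 (3.74%, 1.46% to 9.22%). Both are above the share of all genes of their class, the second with only 4 genes. These 4 include ANG and TTR, which are counted by their GENCODE starts.

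**Figure D4:**
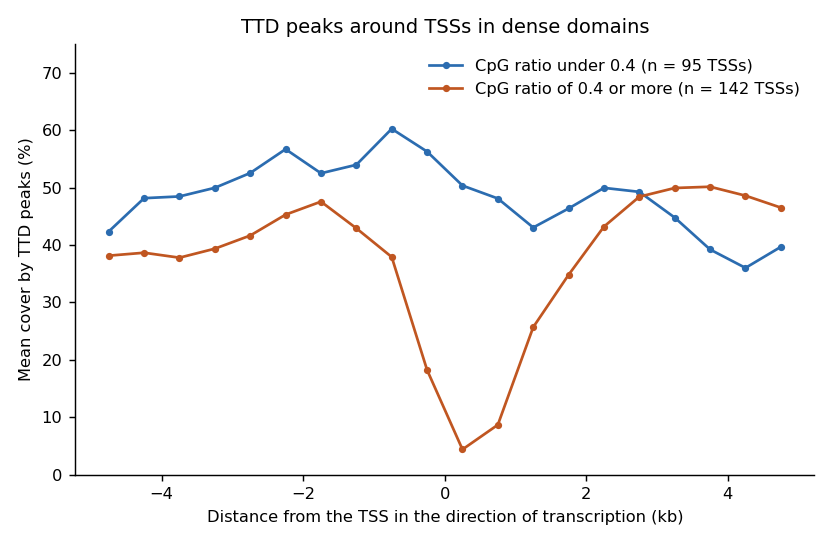
Mean cover by TTD peaks in 500 bp bins around TSSs in dense domains, by distance from the TSS in kb, for 95 TSSs with a CpG ratio under 0.4 and 142 with a ratio of 0.4 or more. Cover of the CpG-rich group falls to 4.41% just after the TSS, while the other group is at 50.3% there.

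The base composition of the domain peaks was close to that of their gaps, with fewer CpG in the peaks. The GC content was 43.1% in the domain peaks, 42.8% in the gaps over 1000 bp and 40.9% in windows across the genome. The ratio of observed to expected CpG was 0.210 in the peaks, 0.244 in the gaps of 1000 bp or less, 0.260 in the longer gaps and 0.239 across the genome. In the 251 runs with a broad peak, the peaks had a GC content of 41.5% and a CpG ratio of 0.193.

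HNF4 letters were concentrated in the middle of the domain peaks. They were present in the central 300 bp of 75 of 3294 peaks (2.28%, 1.82% to 2.84%), as in the windows printed above the values, and in the centres of 18 of 2275 gaps over 1000 bp (0.791%, 0.501% to 1.25%). In the 512 gaps of 1000 bp or less the letters were at 9 centres (1.76%, 0.927% to 3.31%), an interval that overlaps that of the peaks. The share in peaks was 3.41 times that of the windows across the genome. At 3 kb from the peak centre it was 1.03% on the left and 0.729% on the right. The same letters written back to front, which have the same base content, were found in 0.820% of peak centres (0.564% to 1.19%) and 0.779% of genome windows. HNF4 letters at peak centres were not particular to dense domains. Single peaks had more, 3.56% (3.27% to 3.88%), runs of 2 to 4 peaks had 2.42% (2.16% to 2.71%), and runs with a broad peak had 1.78% (1.30% to 2.42%). Over the whole length of the peaks, HNF4 letters occurred 0.0483 times per kb in dense domains and 0.0757 times per kb in single peaks, against 0.0587 in the gaps of 1000 bp or less, 0.0218 in the longer gaps and 0.0226 in windows across the genome.

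**Figure D5:**
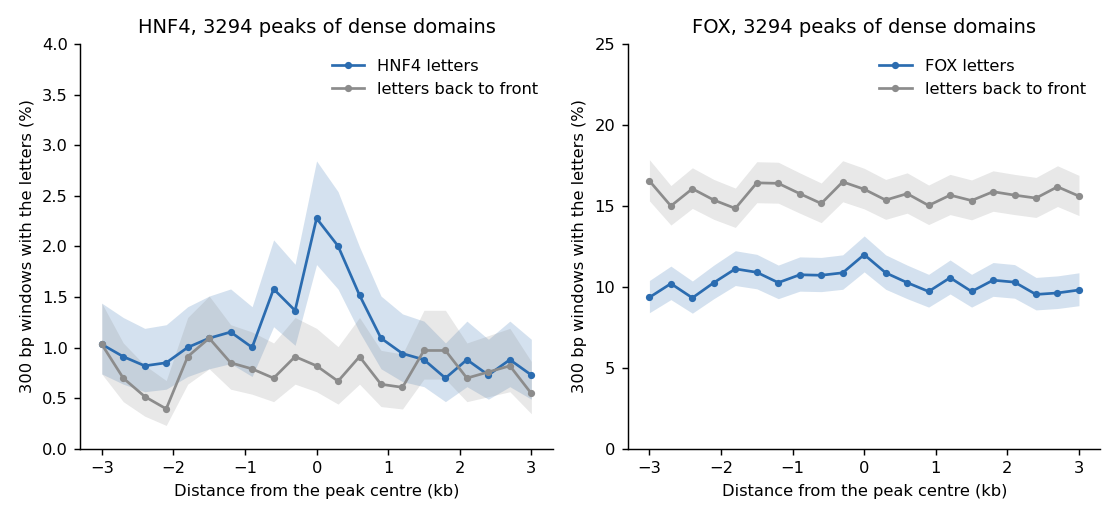
Percentage of 300 bp windows with HNF4 letters (left) or FOX letters (right), by distance from the centre of the 3294 domain peaks in kb, with the same letters back to front in grey and 95% Wilson intervals as bands. HNF4 letters reach 2.28% at the centre, while FOX letters rise by a smaller factor, from 308 windows at 3 kb on the left to 395 at the centre.

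FOX letters varied by a smaller factor between peaks and gaps. Over the whole length they occurred 0.388 times per kb in domain peaks, 0.510 in the gaps of 1000 bp or less, 0.350 in the longer gaps and 0.389 in genome windows. They were present at 395 of 3294 domain peak centres (95% interval 10.9% to 13.1%), 13.3% of the centres of 512 gaps of 1000 bp or less (10.6% to 16.5%) and 9.36% of those of longer gaps (8.23% to 10.6%), against 10.7% of genome windows. Back to front, they were at 528 of the domain peak centres (95% interval 14.8% to 17.3%) and 17.6% of genome windows. The intervals of short gaps and of domain peaks overlap. HNF1 letters, a motif of 10 letters named here without spelling it, were at 17 domain peak centres (0.516%, 0.322% to 0.825%), 1.56% of short gap centres (0.794% to 3.05%, from 8 gaps), 0.396% of long gap centres (0.208% to 0.750%) and 0.417% of genome windows. They were also in 1 of the 14 RefSeq promoters, that of PLG, which lies in a peak, and in 0.322% of all RefSeq promoters. A shorter HNF4 form, AGTCCA (on the other strand TGGACT), was at 15.8% of domain peak centres (14.6% to 17.0%) and 12.7% of long gap centres (11.4% to 14.2%), against 11.98% of genome windows. HNF6 letters, searched as ATCGAT (the same on both strands) or ATTGAT (on the other strand ATCAAT), were at 13.6% of domain peak centres (12.4% to 14.8%), 14.7% of the centres of all gaps (13.4% to 16.1%) and 17.1% of genome windows. CEBP letters, searched as TTGCNNAA (TTNNGCAA on the other strand), were at 17.3% of peak centres, 15.4% of short gap centres, 15.2% of long gap centres and 15.6% of genome windows. AP-1 letters, searched as TGANTCA (the same on both strands), were at 10.6%, 10.2%, 8.44% and 9.03% of these, in the same order.

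The domains were spread unevenly over the chromosomes. Chromosomes 2, 6, 1 and 20 held 77, 48, 45 and 41 domains, together 211 of 507 (41.6%). Per length, chromosome 20 had the most, 63.6 per 100 Mb against 16.4 over the main chromosomes, followed by chromosome 2 with 31.8 and chromosome 6 with 28.1. Chromosome 19 had 2 domains (3.41 per 100 Mb), and so had the X chromosome (1.28 per 100 Mb). The number of peaks moved with these values, with 22.8 peaks per Mb on chromosome 20, 17.2 on chromosome 2, 16.7 on chromosome 6 and 5.97 on chromosome 19, against 10.2 over all. The share of a chromosome's peaks that lay in domains was 17.6% on chromosome 20, 13.2% on chromosome 14, 12.1% on chromosome 2 and 3.43% on chromosome 19. The number of copies of each chromosome in these cells was not measured here, and its part in these differences was not tested.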

How the data were processed

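Reads had been trimmed (Trimmomatic 0.38) and aligned to hg38 (HISAT2 2.2.1) by the authors. They took RPKM coverage in 10 bp bins (deepTools 3.3.2), averaged it over both TTD replicates and called broad peaks (MACS2 2.1.1). Blacklisted regions were then removed, and the list was curated by hand. The values deposited by the authors are the start, end and width of each peak in bp, without a score, fold or p-value. All widths equal the end minus the start. From these, domains, cover and gaps were computed by interval arithmetic, using GENCODE release 44. Its 20033 protein-coding genes were each given 1 TSS, the upstream end of the gene record. The tools were matplotlib 3.10.9, samtools 1.23.1, pysam 0.24.0, scipy 1.17.1, numpy 2.4.6 and Python 3.11.15, and the joining of peaks was tested on simulated intervals. Genes were named if they overlapped or flanked the 10 domains with most peaks, the 3 longest or the 3 with largest cover, if they were among up to 5 genes of a list whose domain had most peaks, or if they were ALB, FGA, FOXA1, HNF4A, FOXA2 or ARID5B. Where genes of a list tied, all were named after their values were seen, as were CMIP, HPR, DGAT2 and genes given as examples of neighbours. Domains and lists were chosen with earlier results of these data known. Motif letters, their grouping into sets, the CpG ratio of 0.4, the printed windows and the domains drawn were chosen after values had been seen. No test was made, since the rule used the values. The H3K9me2 ChIP and input signals were not analysed here. Alternatives were other limits for gap, number of peaks and width, stricter peak lists and other gene overlaps.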

Additional observations from a re-analysis of the deposited data

How the results depend on the processing

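Counts were compared with a factor of 1.5, and shares and medians with their 95% interval. Of 47 alternative values, 21 stayed within these bounds and 26 did not. With a stitch gap of 10000 bp, the span fell to 15.6 Mb, the genes with a TSS in a domain to 153 and the share of peaks to 7.57%, and the median cover was 52.2%. With 15000 bp, the median cover was 42.5% and the share of peaks 13.04%. With at least 4 peaks there were 953 domains with 16.1% of the peaks, 397 genes and 32 hepatic genes, and with at least 6 peaks 298 domains with 7.12% of the peaks. With no limit on width, the span was 43.9 Mb, the median cover 51.7%, the share of peaks 17.4% and the hepatic genes 37. With only peaks of 1000 bp or more, the median cover was 49.0% and the share of peaks 9.62%. With only peaks at or above the median width there were 159 domains over 7.66 Mb with a median cover of 56.7%, 5.84% of the peaks, 69 genes and 8 hepatic genes. By overlap of the gene body, 455 genes were counted. FOX letters were in the centres of 10.1% of all gaps and of 13.3% of gaps of 1000 bp or less. Under the 9 settings, the share of hepatic genes was between 4.51 and 7.93 times that of all protein-coding genes. The GC content outside repeats was not run, since repeats are not marked in the sequence used here. No paired analysis was possible because the replicates were pooled before peaks were called and 1 list was used, and for the same reason no replicate could be left out. Peak calls depend on sequencing depth, which the list does not give, and the authors removed regions and curated peaks after the calls. A gap therefore shows only that their final list holds no peak there.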
